A study of Mus musculus with 6 samples.

Results

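Transcript levels of 33 mouse genes that act in homologous recombination, the Fanconi anaemia pathway and the DNA damage checkpoint were compared between 2 drug treatments of experimental colitis. The genes were taken by symbol from the deposited expression table, where all 33 were found among 18268 genes. The samples were colorectal tissue of C57BL/6 mice, described as adult males in the methods of the study, in which dextran sulfate sodium (DSS), which damages the colonic epithelium when drunk with water, was used for 7 days to induce colitis. For 6 days 3 of these mice were gavaged with berberine (BBR), an alkaloid of medicinal herbs, and the other 3 with sulfasalazine (SASP), from which gut bacteria release an anti-inflammatory salicylate. Healthy mice and colitis mice without a drug were not analysed here, so every difference is between the 2 drug groups. These groups also differed in markers of cell types, as given further on. The labels list 1 sample per library and do not say that each came from a separate animal, so p-values measure the spread between these samples, each called a mouse here. Mice were numbered in accession order, which links no BBR mouse to a SASP mouse.

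Homologous recombination mends a broken chromosome by copying the intact sister. The MRE11-RAD50-NBN complex finds the break, nucleases and helicases trim the ends, and BRCA1 with BARD1, PALB2 and BRCA2 prepares the exposed strand to pair with the sister. The Fanconi proteins detect crosslinks between the strands at stalled replication forks and hand them to this machinery. ATM and ATR are the kinases that sense the damage and, through CHEK2 and CHEK1, hold the cell cycle. Many of these genes are transcribed in S and G2 phase, and in the gut most dividing cells lie in the crypts.

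Most of the 33 genes had lower values in BBR than in SASP mice, and 14 passed the test. The genes of BRCA1, its partners BARD1 and PALB2, the strand exchange factors RAD51AP1, RAD54L and RAD54B, the resection enzymes EXO1 and BLM, and the replication checkpoint proteins CHEK1, CLSPN and TOPBP1 were all lower in BBR mice. Genes of break sensing (Mre11a, Rad50, Nbn), the filament assembly genes Rad51c, Xrcc2 and Xrcc3, the kinase genes Atm and Chek2 and most of the Fanconi core complex did not pass the test, which by itself does not show that they differed less. Levels are given as FPKM, read fragments corrected for transcript length and for the number mapped in the library, and a log2 fold change is BBR minus SASP on the log2(FPKM + 1) scale, which understates differences of genes with low values. Genes with at least 1 FPKM in at least 3 of the 6 mice were tested with limma, and the p-values were adjusted by the Benjamini-Hochberg method over all 12072 genes tested. Of the 33 genes, 29 were tested, 14 were lower in BBR at an adjusted p under 0.05 and 0 were higher. Among all genes tested, 5.04% were lower and 3.82% higher (8.86% in either direction). At an unadjusted p under 0.05, 16 of the 29 were lower and 1 was higher. The share of all genes past an unadjusted p is not given here. Such counts, here and further on, therefore have no background to be read against. Of the 29, 23 had a log2 fold change below 0, against 39.2% of all genes tested, and the median was -0.61 for the 29 genes and 0.097 for all genes tested.

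The filter itself favours such a difference, because 7 of the 14 lower genes (Brca1, Bard1, Rad54b, Exo1, Blm, Fanci and Brip1) had every BBR value under 1 FPKM and were tested only through the SASP mice. Palb2, Chek1 and Clspn had 1 BBR mouse at 1 FPKM or more, and Rad51ap1, Rad54l and Fanca had 2. These genes too needed the SASP mice to be tested. Of the 14, only Topbp1 met the filter by its BBR mice alone. With no filter, all 33 genes could be tested, and 27 had a log2 fold change below 0 and 6 above it. Without the filter 8 of the 33 passed as lower (2.10% of all 18260 genes in that fit) and 0 as higher (1.23%). The other 6, Brca1, Palb2, Fanca, Fanci, Clspn and Topbp1, then missed the threshold, with adjusted p-values of 0.0622 to 0.071. With the filter at a mean of at least 1 FPKM instead, chosen after the data were seen, 11 of 27 passed as lower (4.75% of all genes). Over the 33 genes, all BBR values lay below all SASP values for 20, against 12.2% of the genes above 0 in at least 1 mouse. Only for Xrcc3 did all BBR values lie above all SASP values, against 18.5% of genes, and for the other 12 genes the groups overlapped.

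The number of genes past the threshold depended on single mice. It was 0 without BBR mouse 1 (15 at an unadjusted p under 0.05 in limma), when 0.915% of all genes were lower, 7 without BBR mouse 2 (2.55% of all genes), and 15 without BBR mouse 3, when Fance and Xrcc3 also passed as higher (11.5% of all genes were then lower and 22.3% higher). It was 0 without SASP mouse 1 and 0 without SASP mouse 3 (9 and 8 at an unadjusted p under 0.05), and 1, Rad51ap1, without SASP mouse 2. Of all genes, 0.418%, 0.378% and 2.13% were lower in those fits, in that order. Only 20 or 21 of the genes were then tested, since the filter still asked for 3 mice. BBR mouse 3 stood apart from its group. It held the lowest value of all 6 mice for 28 of the 33 genes. Its correlation with the other BBR mice across all genes tested was 0.953 and 0.949, against 0.987 between those mice. With SASP mice 1 to 3 the correlation of BBR mouse 3 was 0.920, 0.953 and 0.944, so it was not clearly closer to its own group.

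**Figure D1:**
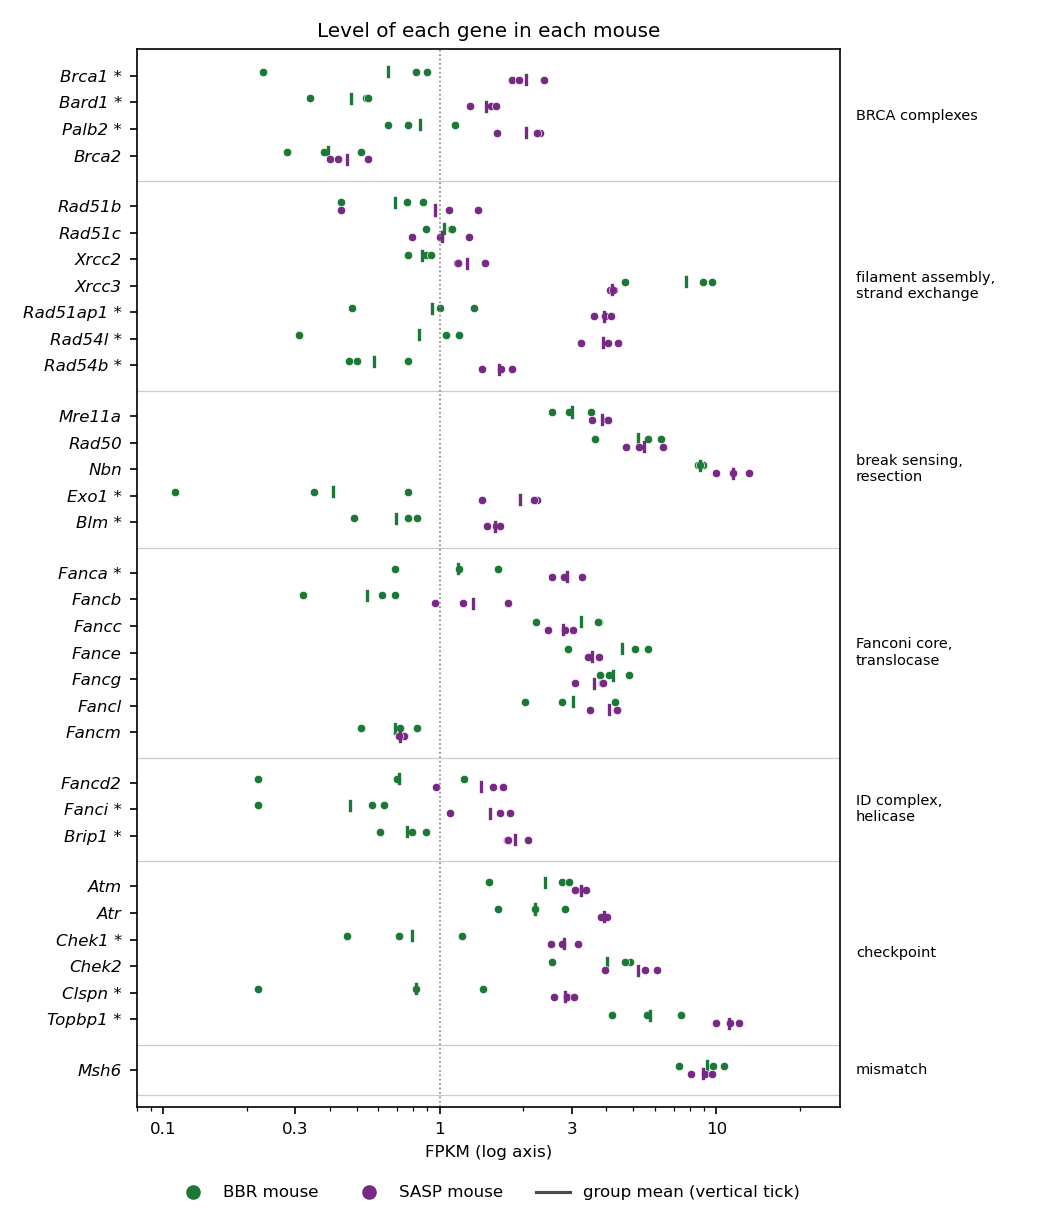
FPKM of the 33 genes in each mouse (log axis), grouped by role, with BBR mice in green, SASP mice in purple, a vertical tick at each group mean and a dotted line at 1 FPKM; an asterisk marks the 14 genes lower in BBR at an adjusted p under 0.05. The green points of the marked genes lie to the left of all purple points, with the lowest green point from BBR mouse 3.

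The genes were weakly expressed in this tissue. The 14 lower genes had mean levels of 0.973 to 8.41 FPKM with a median of 1.40 FPKM, the 15 tested genes that did not pass had a median of 3.56 FPKM, and all genes tested had a median of 10.01 FPKM. With an estimated depth of 16400000 to 18200000 reads per mouse, the lowest value, Exo1 in BBR mouse 3, corresponded to about 14 reads and the Topbp1 value of SASP mouse 2 to about 1149 reads. Tissue RNA from a mixture of cells does not tell fewer cells that express a gene from less RNA per cell.

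The promoters were searched for motifs known from cell cycle genes. RefSeq promoters (GRCm38.p6, 250 bases before to 50 bases after the gene start) were given for 27 of the 33 genes. An E2F-type motif (TTTGGCGC, TTTCCCGC, TTTCGCGC or TTTGCCGC on either strand) was present in 8 of the 27, and in 2.32% of all 27025 promoters. The 8 genes were Bard1, Clspn and Topbp1 of the 12 lower genes with a promoter, Rad51c, Fancg, Chek2 and Msh6 of the 11 that were tested and did not pass, and Brca2 of the 4 that were not tested. The motif therefore occurred among genes that differed between the drugs and among genes that did not pass. CCAAT, the box bound by NF-Y, was present in 18 of the 27 on either strand (37.9% of all promoters), and TTTGAA, the core of the cell cycle homology region, in 1, Bard1 (18.1%). None of the motifs contains another. The promoters with the motif are shown for the 3 lower genes and, for contrast, for Rad51c, the tested gene with the highest p, from its first listed start. The E2F-type motif is in capitals, and begins at position -209 from the start in Bard1 (chr1:71102923-71103222, minus strand), 21 in Clspn (chr4:126556730-126557029, plus strand), -129 in Topbp1 (chr9:103305077-103305376, plus strand) and 11 in Rad51c (chr11:87404457-87404756, minus strand).
Bard1: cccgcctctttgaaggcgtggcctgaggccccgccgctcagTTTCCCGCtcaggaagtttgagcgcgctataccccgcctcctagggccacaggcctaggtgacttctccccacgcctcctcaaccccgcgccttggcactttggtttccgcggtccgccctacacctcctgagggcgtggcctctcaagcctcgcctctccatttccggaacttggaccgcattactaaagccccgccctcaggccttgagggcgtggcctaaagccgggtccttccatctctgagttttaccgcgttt
Clspn: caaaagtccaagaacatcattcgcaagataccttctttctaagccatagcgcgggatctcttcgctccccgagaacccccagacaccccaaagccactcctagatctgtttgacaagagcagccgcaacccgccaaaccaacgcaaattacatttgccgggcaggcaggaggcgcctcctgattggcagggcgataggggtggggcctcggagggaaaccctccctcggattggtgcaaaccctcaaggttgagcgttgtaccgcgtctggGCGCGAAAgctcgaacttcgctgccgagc
Topbp1: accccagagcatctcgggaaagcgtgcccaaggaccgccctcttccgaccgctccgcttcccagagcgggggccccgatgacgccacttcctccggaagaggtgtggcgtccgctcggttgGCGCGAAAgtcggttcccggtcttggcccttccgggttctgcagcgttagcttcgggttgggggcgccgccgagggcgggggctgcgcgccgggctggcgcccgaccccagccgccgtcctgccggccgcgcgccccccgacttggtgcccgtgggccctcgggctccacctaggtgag
Rad51c: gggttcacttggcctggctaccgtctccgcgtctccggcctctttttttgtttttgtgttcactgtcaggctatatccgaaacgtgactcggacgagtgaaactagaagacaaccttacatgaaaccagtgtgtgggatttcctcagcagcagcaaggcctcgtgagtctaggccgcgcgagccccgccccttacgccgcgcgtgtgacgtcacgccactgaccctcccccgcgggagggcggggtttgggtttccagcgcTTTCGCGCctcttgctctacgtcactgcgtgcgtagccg

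The BRCA complexes were compared first. Brca1 (Gene ID 12189), whose product organises resection and the steps after it, was at 0.82, 0.90 and 0.23 FPKM in BBR mice 1 to 3 and at 2.39, 1.82 and 1.93 FPKM in SASP mice 1 to 3. All BBR mice were below 1 FPKM and all SASP mice above it. The group means were 0.650 ± 0.366 and 2.05 ± 0.302 FPKM (SD, n = 3 each), and the log2 fold change was -0.91 (SE 0.20, adjusted p = 0.0421 in limma). With no filter, or with a pseudocount of 0.1 or 0.01, Brca1 did not pass (adjusted p = 0.0622, 0.066 and 0.0751 in limma). Bard1 (12021), the partner that forms a ubiquitin ligase with BRCA1, was at 0.54, 0.55 and 0.34 FPKM in BBR mice and 1.53, 1.29 and 1.59 FPKM in SASP mice. The groups were clearly separated, with a log2 fold change of -0.74 (SE 0.14, adjusted p = 0.0268 in limma). Palb2 (233826), which bridges BRCA1 and BRCA2, was at 1.13, 0.77 and 0.65 FPKM in BBR mice and 2.31, 2.24 and 1.61 FPKM in SASP mice. The highest BBR mouse stayed below the lowest SASP mouse, and the log2 fold change was -0.72 (SE 0.17, adjusted p = 0.0455 in limma).

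Brca2 (12190), whose product acts with those of Brca1 and Palb2, was too low to be tested. It was at 0.28, 0.38 and 0.52 FPKM in BBR mice and 0.40, 0.55 and 0.43 FPKM in SASP mice, so the groups overlapped and BBR mouse 3 was here the highest of its group. With no filter its adjusted p was 0.612 in limma. The log2 ratio of Brca1 to Brca2 (on FPKM + 1) was 0.51, 0.46 and -0.31 in BBR and 1.28, 0.86 and 1.03 in SASP mice. The ratio was lower in every BBR mouse than in every SASP mouse, by 0.84 on average. This pair and 3 others given further on were chosen after their values were seen, and the exact two-sided permutation test gave p = 0.1 for each (0.1 after adjustment over the 4 pairs), the smallest that 3 against 3 mice allow.

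The strand exchange factors Rad51ap1 and Rad54l had the largest differences of the 29 tested genes on the log2(FPKM + 1) scale. By the ratio of means, or with a pseudocount of 0.01, Exo1 was first instead. With that pseudocount Exo1 did not pass the threshold. Rad51ap1 (19362), whose product stimulates strand pairing, was at 1.00, 1.33 and 0.48 FPKM in BBR mice and 3.96, 4.17 and 3.62 FPKM in SASP mice. The SASP mice lay close together and about 4.18 times as high by the ratio of means. Its log2 fold change was -1.37 (SE 0.19) and its limma adjusted p, 0.0141, was the lowest of the 29. Rad54l (19366), a motor protein that moves along DNA during strand exchange, was at 1.17, 1.05 and 0.31 FPKM in BBR mice and 4.41, 4.06 and 3.23 FPKM in SASP mice. BBR mouse 3 was far below the other BBR mice, but these too were less than every SASP mouse, and the log2 fold change was -1.44 (SE 0.22, adjusted p = 0.0186 in limma). Its relative Rad54b (623474) was at 0.50, 0.77 and 0.47 FPKM in BBR mice and 1.82, 1.66 and 1.42 FPKM in SASP mice. The groups did not overlap, and the log2 fold change was -0.74 (SE 0.15, adjusted p = 0.0317 in limma).

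The strand of the reads was not given in the sources used here, and some exons are shared with neighbours in GENCODE M21. Of the Rad54b exon bases, 35.8% overlap Fsbp on the same strand, which itself was at 0.00 to 0.40 FPKM, and 15.4% of the Rad54l exon bases overlap Lrrc41 on the other strand. Lrrc41 had a log2 fold change of 0.083 (adjusted p = 0.701 in limma).

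Of Rad51b, Rad51c, Xrcc2 and Xrcc3, which assist filament assembly, none passed the test. Rad51c was at 1.10, 1.11 and 0.89 FPKM in BBR mice and 0.79, 1.00 and 1.27 FPKM in SASP mice, with overlapping groups and a log2 fold change of 0.014 (95% confidence interval -0.34 to 0.36). Xrcc2 was lower in every BBR mouse (0.77 to 0.93 FPKM) than in every SASP mouse (1.15 to 1.46 FPKM), but its log2 fold change of -0.27 missed the threshold (adjusted p = 0.202 in limma). Rad51b was not tested, at 0.44 to 0.87 FPKM in BBR mice and 0.44 to 1.37 FPKM in SASP mice. Xrcc3 had the opposite direction. It was at 8.93, 9.66 and 4.66 FPKM in BBR mice and 4.12, 4.27 and 4.22 FPKM in SASP mice, so that BBR mice 1 and 2 were well above the SASP mice and BBR mouse 3 only just. Its log2 fold change was 0.70 (95% confidence interval 0.12 to 1.27, adjusted p = 0.106 in limma), and without BBR mouse 3 it passed the threshold.

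Of the break sensing and resection genes, Exo1 and Blm passed. Mre11a, Rad50 and Nbn, the complex that binds broken ends, had log2 fold changes of -0.29, -0.075 and -0.35 and did not pass. Nbn was at 8.60 to 8.96 FPKM in BBR mice and 10 to 13.1 FPKM in SASP mice, without overlap. Its limma adjusted p was 0.111. Exo1 (26909), the nuclease of long-range resection, was at 0.35, 0.77 and 0.11 FPKM in BBR mice and 1.42, 2.25 and 2.19 FPKM in SASP mice. The BBR values were spread widely but none reached the SASP values, and the ratio of the SASP to the BBR mean, 4.76, was the highest among the 14 lower genes. The log2 fold change was -1.08 (SE 0.22, adjusted p = 0.0341 in limma). With a pseudocount of 0.1 or 0.01, Exo1 did not pass, and neither did Brca1, Palb2, Blm, Fanca, Fanci and Clspn. Blm (12144), a helicase that unwinds ends and dissolves joined chromosomes, was at 0.83, 0.77 and 0.49 FPKM in BBR mice and 1.6, 1.65 and 1.48 FPKM in SASP mice. The SASP mice differed little from each other, and the log2 fold change was -0.61 (SE 0.14, adjusted p = 0.0455 in limma). The log2 ratio of Exo1 to Mre11a was -1.55, -1.35 and -1.68 in BBR and -1.05, -0.64 and -0.51 in SASP mice, a mean difference of -0.79 with no overlap.

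Of the Fanconi core complex, which attaches ubiquitin to the FANCI-FANCD2 pair, only Fanca passed among 5 genes tested. Fanca (14087) was at 1.17, 1.63 and 0.69 FPKM in BBR mice and 3.28, 2.81 and 2.54 FPKM in SASP mice. Every SASP mouse was higher than every BBR mouse, with a log2 fold change of -0.86 (SE 0.19, adjusted p = 0.0422 in limma). Fancc, Fance and Fancg had log2 fold changes of 0.14, 0.25 and 0.18, and Fancl, the ubiquitin ligase subunit, of -0.37. The groups overlapped in these 4 genes. Their limma adjusted p-values were 0.283 to 0.622. Fancb was not tested, but its values were lower in BBR (0.62, 0.69 and 0.32 FPKM) than in SASP mice (1.77, 1.21 and 0.96 FPKM) without overlap. Fancm, a translocase that anchors the complex to DNA, was not tested either, and its values overlapped at 0.52 to 0.83 FPKM in BBR mice and 0.71 to 0.74 FPKM in SASP mice.

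Of the genes that act after the core complex, Fanci and Brip1 were lower. Fanci (208836), a subunit of the clamp that closes around damaged DNA, was at 0.63, 0.57 and 0.22 FPKM in BBR mice and 1.80, 1.65 and 1.09 FPKM in SASP mice. The groups did not overlap, and the log2 fold change of -0.77 was closest to the threshold among the 14 (SE 0.19, adjusted p = 0.0489 in limma). With no filter, Fanci did not pass (adjusted p = 0.0622 in limma). Fancd2, the other partner of the clamp, was at 0.70, 1.22 and 0.22 FPKM in BBR mice and 1.69, 1.56 and 0.97 FPKM in SASP mice, where BBR mouse 2 exceeded SASP mouse 3. Its log2 fold change of -0.52 did not pass (adjusted p = 0.196 in limma). Brip1 (237911), a helicase that binds BRCA1, was at 0.79, 0.89 and 0.61 FPKM in BBR mice and 2.09, 1.75 and 1.77 FPKM in SASP mice. Both groups were tight and well separated, with a log2 fold change of -0.70 (SE 0.14, adjusted p = 0.0307 in limma). Exon bases shared with genes on the other strand made up 10.5% for Fanca (Zfp276), 16.0% for Fanci (Polg), 13.7% for Fancl (Vrk2) and 16.4% for Fancc (Gm16133). Zfp276, Polg and Vrk2 did not pass the test, and Gm16133 was not analysed here.

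**Figure D2:**
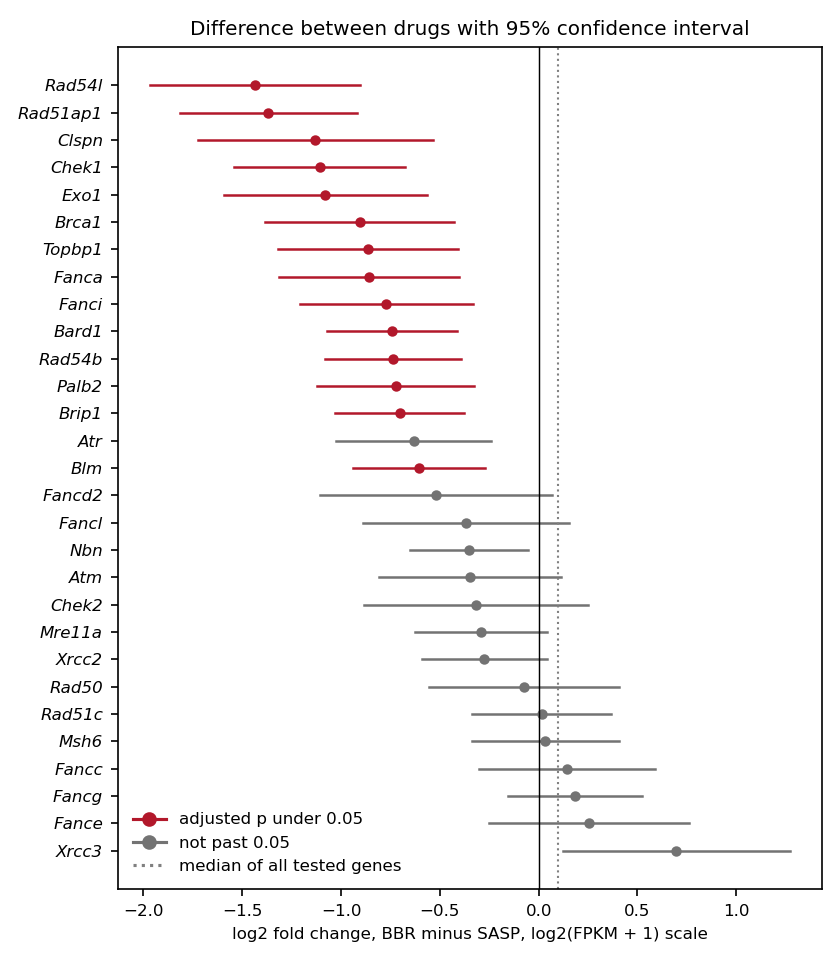
Log2 fold change (BBR minus SASP, log2(FPKM + 1) scale) of the 29 tested genes with 95% confidence intervals, ordered by size, in red where the limma adjusted p was under 0.05. The dotted line is the median of all genes tested, 0.097, and the values run from -1.44 for Rad54l to 0.70 for Xrcc3.

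In the checkpoint, Chek1, Clspn and Topbp1 passed, and Atr, Atm and Chek2 did not. Chek1 (12649), the kinase that ATR activates, was at 0.71, 1.2 and 0.46 FPKM in BBR mice and 2.53, 2.76 and 3.15 FPKM in SASP mice. The lowest SASP mouse was well above the highest BBR mouse, with a log2 fold change of -1.11 (SE 0.18, adjusted p = 0.0205 in limma). Clspn (269582), the adaptor that presents CHEK1 to ATR, was at 0.82, 1.43 and 0.22 FPKM in BBR mice and 2.88, 3.06 and 2.59 FPKM in SASP mice. BBR mice varied more than SASP mice, and the log2 fold change was -1.13 (SE 0.25, adjusted p = 0.0415 in limma). Topbp1 (235559), the activator of ATR and the most abundant of the 14 genes, was at 5.62, 7.45 and 4.18 FPKM in BBR mice and 11.2, 12.1 and 9.93 FPKM in SASP mice. It differed by a ratio of 1.93 between means, the smallest of the 14, with a log2 fold change of -0.86 (SE 0.19, adjusted p = 0.0422 in limma).

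Atr (245000) itself was at 2.2, 2.83 and 1.62 FPKM in BBR mice and 3.93, 3.84 and 4.01 FPKM in SASP mice. The groups did not overlap, but the log2 fold change of -0.63 (SE 0.17) lay just outside the threshold (adjusted p = 0.0599 in limma). Blm, at -0.61 with an adjusted p of 0.0455, lay just inside it. Atm (11920), the kinase of double-strand breaks, was at 2.76, 2.93 and 1.51 FPKM in BBR mice and 3.28, 3.09 and 3.38 FPKM in SASP mice. BBR mouse 3 was far below the other BBR mice, and the log2 fold change was -0.35 (95% confidence interval -0.81 to 0.11, SE 0.19, adjusted p = 0.255 in limma). Chek2 (50883), the kinase that ATM activates, was at 4.88, 4.67 and 2.55 FPKM in BBR mice and 5.51, 6.12 and 3.95 FPKM in SASP mice. The groups overlapped, and the log2 fold change was -0.32 (95% confidence interval -0.89 to 0.25, SE 0.24, adjusted p = 0.385 in limma). Its sign changed with sample weights and with either marker covariate described with the cell type markers.

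These intervals do not show that Atm and Chek2 were equal between the drugs. The log2 ratio of Chek1 to Chek2 was -1.78, -1.37 and -1.28 in BBR and -0.88, -0.92 and -0.25 in SASP mice, a mean difference of -0.79. For Atr to Atm it was -0.23, -0.037 and 0.062 in BBR and 0.20, 0.24 and 0.19 in SASP mice, a mean difference of -0.28. Both ratios were lower in every BBR than in every SASP mouse. Msh6, which recognises mismatches and is the remaining gene, was at 7.30 to 10.7 FPKM in BBR mice and 8.08 to 9.61 FPKM in SASP mice, a log2 fold change of 0.034 (95% confidence interval -0.34 to 0.41).

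Other genes of the same pathways were then examined as a list of 65, of which 64 were in the table and 60 were tested. Of these, 12 were lower in BBR and 0 higher (21 and 2 at an unadjusted p under 0.05 in limma), and the median log2 fold change was -0.16. The shares over all genes tested were 5.04% lower and 3.82% higher, with a median of 0.097. H2afx, the histone marked at breaks, was at 10.6, 11.02 and 12.8 FPKM in BBR mice and 24.7, 26.6 and 21.7 FPKM in SASP mice. BBR mouse 3 was here the highest of its group, and the log2 fold change was -1.02 (adjusted p = 0.00913 in limma).

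Rpa2, a subunit of the protein that coats single-stranded DNA, Trip13, an ATPase of checkpoint proteins, Rmi2, a partner of BLM, and Tipin, a fork protection factor, had log2 fold changes of -1.37, -1.13, -0.93 and -0.90. Their limma adjusted p-values were 0.0192, 0.0164, 0.0242 and 0.0163. Also lower were Dna2, Eme1, Timeless, Wrn, Usp1 and Ube2t, named after their values were seen, with log2 fold changes of -1.10 to -0.61. The count of lower genes on this list ranged from 0 without SASP mouse 1 or SASP mouse 3, through 1 without BBR mouse 1, 3 without SASP mouse 2 and 6 without BBR mouse 2, to 15 without BBR mouse 3, when 5 genes passed as higher. In the fit without BBR mouse 3, 11.5% of all genes were lower and 22.3% higher.

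Other repair pathways were counted for comparison. Of 57 genes of mismatch repair, end joining, nucleotide excision and base excision repair, 54 were tested and 0 passed in limma (7 lower and 3 higher at an unadjusted p under 0.05). The median log2 fold change was 0.038 over the 54 genes, and -0.013, 0.059, 0.12 and 0.021 in the 4 pathways in that order. Without BBR mouse 3, 3 of these genes passed as lower and 6 as higher, when 11.5% of all genes were lower and 22.3% higher. Among 19 tested targets of p53, the transcription factor that ATM and CHEK2 activate, 3 were higher in BBR and 1 was lower. Over all genes tested, 3.82% were higher and 5.04% lower. The median of these targets was 0.19. Gdf15, a secreted stress factor, was at 4.46, 3.60 and 3.71 FPKM in BBR mice and 0.50, 1.53 and 0.81 FPKM in SASP mice, with a log2 fold change of 1.37 (SE 0.21, adjusted p = 0.0185 in limma). Cdkn1a, the cell cycle inhibitor best known as a p53 target and named here after its values were seen, had a log2 fold change of -0.24 (adjusted p = 0.578 in limma) with overlapping groups.

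**Figure D3:**
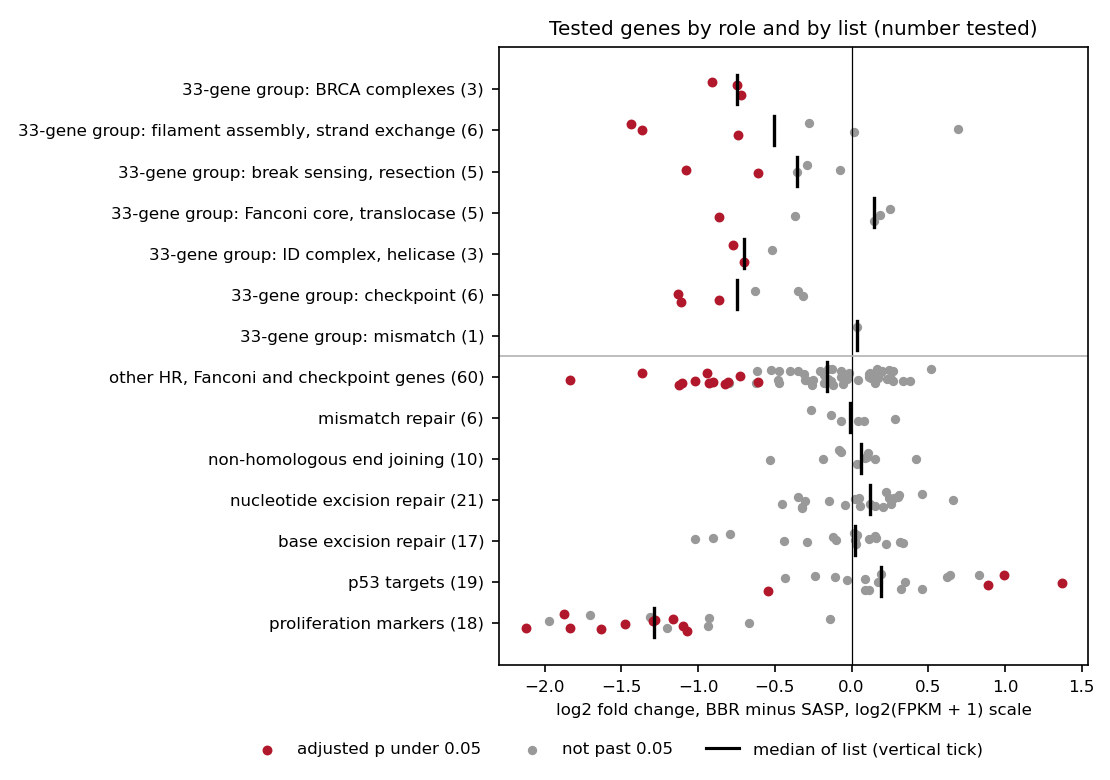
Log2 fold change (BBR minus SASP) of each tested gene by role among the 33 genes (upper rows) and in other lists (lower rows), with the number tested in brackets, a vertical tick at each median and red for a limma adjusted p under 0.05. The medians were -0.16 for the other recombination, Fanconi and checkpoint genes, between -0.013 and 0.12 for the other repair pathways and -1.29 for the proliferation markers.

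Markers of dividing cells had lower values in BBR mice, as had 27 of the 33 genes. All 18 proliferation markers had a log2 fold change below 0, 10 of them passed as lower (5.04% of all genes tested), and the median was -1.29. Their summed level was 102.61 to 185.26 FPKM in BBR mice and 321.98 to 421 FPKM in SASP mice, lowest in BBR mouse 3, and none was at 0. Pcna, the sliding clamp of replication, and Top2a, the mitotic topoisomerase, had log2 fold changes of -1.07 and -1.84 (limma adjusted p = 0.0111 and 0.0353). Mki67, a general marker of cycling cells, was at 11.1, 7.67 and 3.52 FPKM in BBR mice and 22.4, 21.8 and 12.7 FPKM in SASP mice, a log2 fold change of -1.31 that did not pass (adjusted p = 0.0716 in limma). With the mean of the markers as a covariate, 0 of the 29 genes were lower in limma, also at an unadjusted p under 0.05. In that fit 2.39% of all genes were lower. Of the 29 genes 1, Xrcc3, was higher (4 at an unadjusted p), and the share of all genes higher is not given here for comparison. The median log2 fold change of the 29 was then -0.11, with Rad51ap1 at -0.64 and Exo1 at -0.66. The groups did not overlap in this mean, so in that fit the drug and the markers cannot be told apart. Mre11a, Rad50, Fancl, Fancd2, Atm and Chek2 changed sign in it, to 0.096, 0.62, 0.46, 0.54, 0.36 and 0.76.

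Markers of other cell types also differed in level. All 12 smooth muscle markers were above 0 in log2 fold change with 0 past the threshold (10 at an unadjusted p under 0.05 in limma), and their sum was 3579 to 8241 FPKM in BBR mice and 1010 to 2989 FPKM in SASP mice, highest in BBR mouse 3. With their mean as a covariate, 0 of the 29 genes passed in either direction (8 lower and 1 higher at an unadjusted p), when 0.141% of all genes were lower. The median log2 fold change of the 29 was then -0.48, with Rad51ap1 at -1.15 and Exo1 at -1.15. The groups did not overlap in this mean either (7.37 to 8.50 in BBR and 5.71 to 7.18 in SASP mice). In this fit too, the drug and the markers cannot be told apart. Fibroblast markers were higher in 4 of 8 (sums 308 to 417 against 149 to 244 FPKM), and myeloid markers lower in 2 of 9 tested (118 to 133 against 230 to 259 FPKM, with S100a8 at 0 in some mice). Of 11 B cell markers 5 were tested and 1 was lower, with Pax5 at 0 in some mice and sums of 34.6 to 133 FPKM in BBR mice and 39.9 to 82.2 FPKM in SASP mice. T cell markers were tested in 2 of 11 with 0 past the threshold, and their sums overlapped at 4.89 to 7.21 and 3.94 to 10 FPKM. Epithelial markers summed to 9569 to 12009 FPKM in BBR mice and 9521 to 9734 FPKM in SASP mice, with 2 of 12 higher and 1 lower. Crypt stem cell markers, with Ascl2 and Olfm4 at 0 in some mice, summed to 25.2 to 37.3 and 29.3 to 36.1 FPKM, with 1 of 5 tested higher and 1 lower. The part of these cell types in the difference of the 33 genes was not tested beyond the covariate fits.

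**Figure D4:**
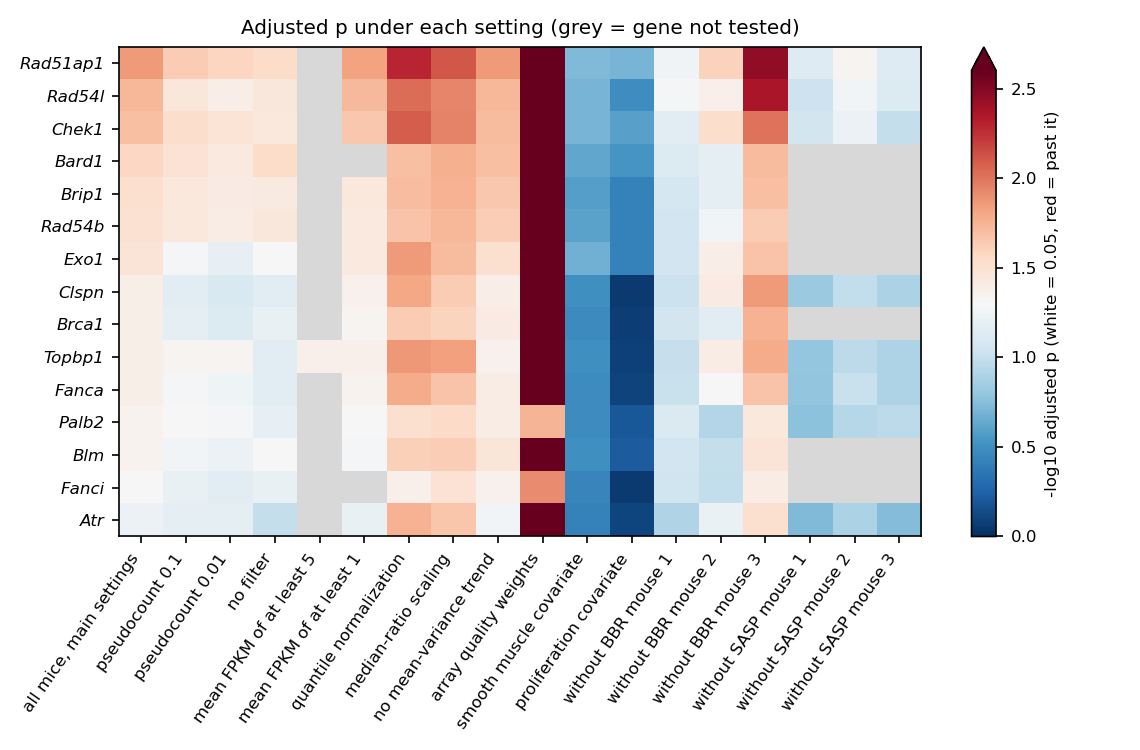
Adjusted p (as -log10) of the 14 lower genes and Atr under each processing setting, in red where the gene passed 0.05, blue where it did not and grey where it was not tested; the darkest red also covers values beyond the end of the scale. Rad51ap1, in the top row, lost its call with either covariate and without BBR mouse 1, SASP mouse 1 or SASP mouse 3, where its log2 fold change was -1.15 and -0.64 with the smooth muscle and proliferation covariates and -1.40, -1.36 and -1.41 without those mice.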

How the data were processed

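RNA sequencing of colorectal tissue of 3 BBR and 3 SASP mice was analysed from FPKM values that the authors deposited per gene and sample. According to the labels and methods, reads were filtered with SOAPnuke, aligned with Bowtie2 2.2.5 and quantified with RSEM 1.2.12; the submitters' processing notes name mm9, and the annotation is not given in the sources used here. The labels name a TruSeq kit and the methods ribosomal RNA depletion with short single-end reads. RSEM divides reads that fit several genes, so values of similar or overlapping genes are less certain. Groups came from the treatment labels. The members and gene lists were chosen with earlier results of these data known.

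Genes with at least 1 FPKM in at least 3 of 6 samples were compared as log2(FPKM + 1) with limma 3.58.1 (R 4.3.3, mean-variance trend, two-sided, Benjamini-Hochberg over 12072 genes, threshold 0.05). The fit was also run on simulated data with independent genes and no outlying mouse. That setting differs from these data, so it does not vouch for the calls made here. No count test was used. By rule, full statistics were given for every member past the threshold and for Atm, Atr, Chek1, Chek2 and Brca1, other tested members by fold change, untested members by FPKM, and from the other lists up to 6 pathway genes and 1 p53 target with the smallest p past the threshold, and Mki67, Pcna and Top2a. Values of 1 gene the rule selects are not reported here. Depth was estimated from 31 to 56 short genes per sample assumed to hold 1 read, with GENCODE M21 lengths for 98.9% of tested genes, and is approximate. No library was a copy of another, since any pair shared the value of at most 0.389% of tested genes. Promoters came from a RefSeq table of GRCm38.p6, a different build from mm9, used for sequence only. Tried alternatives were pseudocounts, filters, scalings, sample weights, marker covariates and each mouse left out.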

Additional observations from a re-analysis of the deposited data

How the results depend on the processing

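Relative to 14 lower and 0 higher members of 33, the counts of lower members were 7 with a pseudocount of 0.1 and of 0.01, 8 with no filter, 1 of 5 tested with a mean of at least 5 FPKM, 11 of 27 with a mean of at least 1 FPKM (chosen after seeing the data), and 0 with the smooth muscle or the proliferation covariate, and 0 to 15 when 1 mouse was left out; in those fits 0 to 2 were higher. Lower members numbered 15 under quantile normalization, 16 under median-ratio scaling, 14 without the mean-variance trend and 17 with array quality weights. Higher members numbered 4 with array quality weights, when 4636 of 12072 genes were higher, and 1 with the proliferation covariate. The median of the members was -0.97 and -0.98 with the low pseudocounts, -0.075 with a mean of at least 5 FPKM, -0.40 with weights, -0.11 with the proliferation covariate and -0.67 to -0.30 with 1 mouse left out. Other recombination, Fanconi and checkpoint genes were lower in 6 with a mean of at least 5 FPKM, 20 (and higher in 14) with weights, 0 with the smooth muscle covariate, 1 with the proliferation covariate, and 0 to 15 (0 to 5 higher) with 1 mouse left out. Other repair genes were lower and higher in 3 and 1 under quantile normalization, 5 and 1 under median-ratio scaling, 9 and 20 with weights, and 0 to 3 and 0 to 6 with 1 mouse left out. All genes were 608 lower and 461 higher, 383 and 225 with no filter, 994 and 743 under quantile normalization, 1082 lower under median-ratio scaling, 2490 and 4636 with weights, 17 and 2 with the smooth muscle covariate, 289 lower with the proliferation covariate, and 45 to 1369 and 6 to 2649 with 1 mouse left out. The weights rested on BBR mouse 1 (5.32) and SASP mouse 3 (4.85), with 0.129 for BBR mouse 3. Some log2 fold changes changed sign. Under quantile normalization and median-ratio scaling, Rad51c was at -0.075 and -0.032 and Msh6 at -0.033 and -0.048. With weights, Rad51c was at -0.056, Rad50 at 0.082 and Chek2 at 0.12, and with the smooth muscle covariate Rad51c was at -0.045 and Chek2 at 0.016. With the proliferation covariate, Mre11a was at 0.096, Rad50 at 0.62, Fancl at 0.46, Fancd2 at 0.54, Atm at 0.36, Chek2 at 0.76, Mki67 at 0.52 and Top2a at 0.087. Leaving out 1 mouse gave -0.069 to 0.10 for Rad51c, -0.21 to 0.12 for Rad50 and -0.068 to 0.18 for Msh6. Over 38 named genes, 414 of 587 values kept direction and side of the threshold, 131 lost it, 17 gained it and 25 changed sign. Left-out SASP mice and higher minimum levels also removed genes from testing, and the cause of the other changes was not tested. No paired analysis was possible because replicate numbers follow accession order and pair no mice. With 3 mice per group and low levels of most of these genes, a miss of the threshold does not settle whether a gene differed.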
